A study of Mus musculus with 6 samples.

Results

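Interleukin 6 is the best known of a family of cytokines that signal through the shared receptor subunit gp130, the product of Il6st. The values below describe 10 genes of this system in pressure-loaded mouse hearts: the ligand genes Il6, Il11, Lif and Osm, the receptor genes Il6ra, Il6st, Osmr and Lifr, and the signal and feedback genes Stat3 and Socs3. They were taken by name, as every array probe set annotated to exactly 1 of these symbols, which gave 24 of the 38195 probe sets tested and 10 of the 18029 genes. A probe set is a group of short array probes designed for the same transcript. Hearts came from 3 Tmbim1 KO mice and from 3 mice labelled Flox and wild type, all on a C57BL/6 background. Every mouse was 8 weeks old and had undergone aortic banding, a constriction that raises the pressure the left ventricle pumps against, for 2 weeks. Each heart was measured on its own Affymetrix array, and the labels call the 3 hearts of each genotype biological samples. The labels do not say which cells lost Tmbim1, how the deletion was made or whether the wild type mice were littermates. Unbanded hearts were not analysed here, so all differences are between genotypes under load and not responses to banding.

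Each of these ligands binds a receptor complex that contains gp130. Interleukin 6 uses IL6RA, LIF uses the LIF receptor and oncostatin M uses the oncostatin M receptor. The complex activates JAK kinases, which phosphorylate STAT3, and STAT3 then enters the nucleus and switches on target genes. One of them is Socs3, whose protein binds gp130 and the JAK kinases and ends the signal. In the heart this pathway is known for its part in cardiomyocyte survival and growth under load.

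The promoters of the pair of genes that passed the test at their main probe set are shown because each holds a motif of a factor known to drive it. Each line gives the 250 bases before an annotated start, 5′ to 3′ on the gene's strand, from RefSeq on GRCm38.p6. The Il6 window is chr5:30012864-30013113 on the plus strand and the Socs3 window is chr11:117969367-117969616 on the minus strand. Capitals mark matches to the motifs searched on both strands, which were TTCNNNGAA (STAT), GGNNTTTCC (NF-kB), TGANTCA (AP-1) and TGACGTCA (CRE).
Il6 promoter: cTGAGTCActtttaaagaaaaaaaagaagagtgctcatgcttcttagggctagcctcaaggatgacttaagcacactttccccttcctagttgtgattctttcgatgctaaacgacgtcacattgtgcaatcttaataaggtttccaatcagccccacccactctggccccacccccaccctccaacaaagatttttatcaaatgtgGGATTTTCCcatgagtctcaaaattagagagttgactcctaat
Socs3 promoter: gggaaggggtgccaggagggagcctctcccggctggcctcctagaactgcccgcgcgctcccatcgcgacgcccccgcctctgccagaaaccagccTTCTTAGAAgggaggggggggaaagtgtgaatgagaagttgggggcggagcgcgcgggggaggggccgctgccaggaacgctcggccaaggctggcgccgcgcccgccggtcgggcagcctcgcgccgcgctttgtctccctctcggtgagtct

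The Il6 window held the NF-kB motif 43 to 35 bases before the start and the AP-1 motif 249 to 243 bases before it, with no match to the STAT letters. The Socs3 window held the STAT motif 154 to 146 bases before the start. That window lies inside the annotated span of Socs3, chr11:117966079-117970336, so the start used is not the upstream end of the span. Of 32851 promoter windows of the same length, 4.93% held the NF-kB letters, 7.02% the STAT letters, 6.75% the AP-1 letters and 1.55% the CRE letters. The table held 11 windows for 9 of the 10 genes, and the other matches in them were an AP-1 motif each in Lif and in 1 of the Il11 windows. The CRE letters were in none of the 11. A match is a description of these letters and does not show that a factor was bound in these hearts.

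The values are log2 signals as processed and deposited by the authors, so a difference of 1 is a 2-fold difference. Every difference is Tmbim1 KO minus Flox wild type, written WT below, with n = 3 hearts in each group. All p-values come from limma fitted across the 38195 probe sets, and an adjusted p is Benjamini-Hochberg adjusted over all of them, with 0.05 as the threshold. Where a gene has several probe sets, the brightest over all 6 arrays is called the main one and stands for the gene. To judge which signals were weak, a background line was drawn on each array at the 95th percentile of 79 probe sets of olfactory and vomeronasal receptor genes. It lay between 4.11 and 4.49, and 11 of the 24 probe sets were above it on all 6 arrays, 6 on some and 7 on none. Levels of different genes are not set against each other, because probes differ in how strongly they bind.

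Facts on the whole set of arrays bear on what follows. Tmbim1 averaged 7.53 ± 0.04 in KO hearts and 8.43 ± 0.13 in WT hearts (SD, n = 3 each), a fall of 0.91 (limma adjusted p = 0.00579). Leaving out KO replicate 2 raised that adjusted p to 0.0512, and leaving out KO replicate 1 and WT replicate 3 together raised it to 0.0607. The 9 cardiomyocyte markers were above the background line on every array, and on every array Eif2s3y of the Y chromosome was above it and Xist below it. KO replicate 1 carried atrial transcripts, with Myl7 at 12.86 and Sln at 12.17, against at most 3.90 and 2.77 on the other arrays. WT replicate 3 lay farthest from the rest on the first principal component. Results are therefore also given without these 2 arrays, alone or together, where that changes a call that was followed. Followed were every probe set of the genes named at the outset and the main ones of Tmbim1, Gab1, Serpina3n, Mt2, Cebpd and Timp1. Other calls given below were not followed, namely those of Sprr1a, Wdfy1, Adamts1, Fosl2, Hspa1a, Hspa1b, the dimmer Gab1 probe set and the Fgl2 one. Whether these hold without an array was not tested. Across all probe sets 161 passed the threshold, which is 0.422%, of which 91 were higher in KO hearts. Leaving out single arrays brought that count down to between 38 (without KO replicate 2) and 86 (without WT replicate 1), so the loss of a call without an array is to be read against this.

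Il6 and its feedback gene Socs3 were higher in KO hearts, while the other ligands and Stat3 did not pass the test. At the main probe sets 2 of the 10 genes passed, both higher, against 0.549% of all main probe sets (0.322% higher in KO). Among the 24 probe sets 3 passed, all higher, where 0.238% of all probe sets passed in that direction, and the third of them was a probe set of Il6st that went against the others of that gene. The 3 KO hearts lay wholly above the 3 WT hearts for Il6, Osmr and Socs3 and wholly below them for Il6st, 4 of 10 genes against 16.7% of all main probe sets. KO hearts lay wholly above WT hearts in 7 of the 24 probe sets, as they did in 6.74% of all probe sets. Without KO replicate 1 and WT replicate 3 together, 1 of the 10 genes passed, Il6, where 29 of all probe sets did. The median difference of the 10 genes was 0.16, against 0.00 over all main probe sets. The 10 genes and the lists below were chosen with earlier results of these data known, so such shares are descriptions only.

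**Figure D1:**
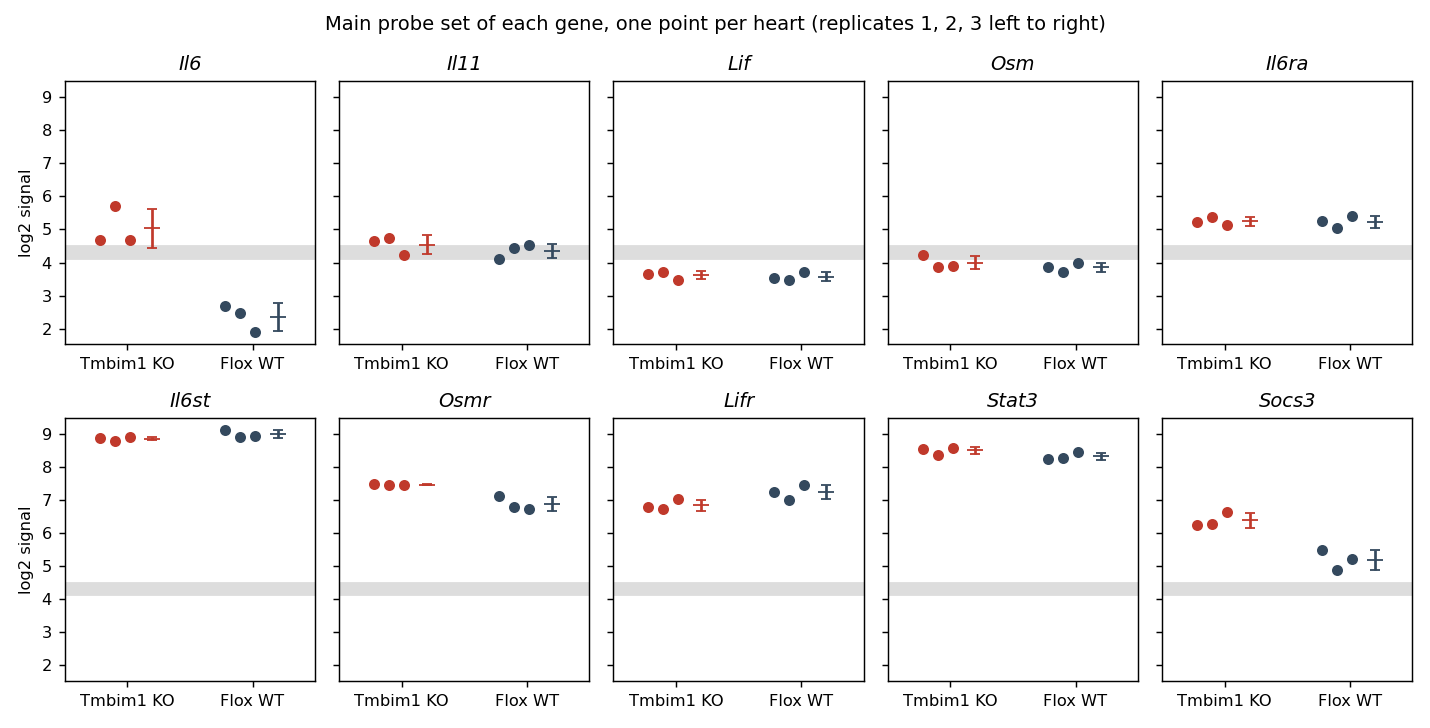
The log2 signal of the main probe set of each gene is plotted for the 3 Tmbim1 KO hearts and the 3 Flox wild type hearts, with points for single hearts, bars for mean ± SD and a grey band for the range of the background lines (4.11 to 4.49). Il6 and Socs3 stand higher in all KO hearts, Osmr is tightly grouped in KO hearts, and Lif and Osm lie at or under the band.

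Among the ligands, Il6 stood apart. Its signal was 4.69, 5.71 and 4.68 in KO hearts, against 2.68, 2.48 and 1.89 in WT hearts. All KO hearts were above all WT hearts, and KO replicate 2 was the highest. The means were 5.03 ± 0.59 in KO hearts and 2.35 ± 0.41 in WT hearts (SD, n = 3 each), a rise of 2.68 (SE 0.28, 95% confidence interval 2.06 to 3.30, limma adjusted p = 0.00485). WT signals were under the background line on all 3 arrays, so the size of the change has only a lower bound. Set against the mean of the WT background lines (4.29), the KO mean of Il6 was 1.67-fold higher, which estimates that bound without an interval. The estimate leaned on KO replicate 2, since KO replicates 1 and 3 were close above their own background lines (4.49 and 4.37). Il6 passed in all 15 alternatives run, with differences of 2.34 to 2.85, but the filter on dim probe sets, which is 1 of them, kept Il6 only through its KO values. Without KO replicate 1 and WT replicate 3 together the difference was 2.61 (limma adjusted p = 0.0267).

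The other ligand genes showed no difference that passed. Il11, whose protein signals through gp130 in fibroblasts and other stromal cells, was at 4.65, 4.75 and 4.22 in KO hearts, against 4.11, 4.43 and 4.52 in WT hearts. The groups overlapped and the difference was 0.18 (95% confidence interval -0.17 to 0.53, limma adjusted p = 0.776). Il11 was above the background line on only 2 of 3 KO arrays and 2 of 3 WT arrays, so its signal was weak too. Osm, the gene of oncostatin M, a cytokine made mainly by myeloid cells, was at 4.22, 3.85 and 3.91 in KO hearts, against 3.85, 3.71 and 3.99 in WT hearts. Its difference was 0.14 (95% confidence interval -0.14 to 0.42, limma adjusted p = 0.784). Lif, the leukaemia inhibitory factor gene, had 2 probe sets, with differences of 0.04 (-0.20 to 0.28) and 0.12 (-0.12 to 0.35). Both probe sets of Lif and that of Osm were under the background line on every array, so a change that stayed under the line could not be detected.

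None of the 4 receptor genes passed at its main probe set by limma, and their differences had both signs. An unadjusted p under 0.05 was reached by 2 of them, and by 11.5% of all main probe sets. Osmr, the signalling subunit for oncostatin M, was at 7.48, 7.45 and 7.46 in KO hearts, against 7.13, 6.79 and 6.72 in WT hearts. The groups did not overlap, and KO hearts spanned 0.03 where WT hearts spanned 0.42. The difference was 0.58 (SE 0.12, 95% confidence interval 0.32 to 0.85), a ratio of 1.50, and it did not pass over all probe sets (limma adjusted p = 0.0907). It passed in 1 of 15 alternatives, without WT replicate 1 (0.71, limma adjusted p = 0.0430). A dimmer probe set of Osmr read 3.66, 3.73 and 3.84 in KO hearts, against 3.30, 3.33 and 3.29 in WT hearts, a difference of 0.44 (limma adjusted p = 0.103). Another read -0.03, and both of these were under the background line on every array.

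Lifr, the LIF receptor subunit and a chromosome 15 gene like Osmr, leaned the other way without passing. It read 6.77, 6.73 and 7.03 in KO hearts, against 7.24, 7.01 and 7.45 in WT hearts. KO replicate 3 lay just above WT replicate 2, so the groups overlapped by that pair. The difference was -0.39 (95% confidence interval -0.69 to -0.09, unadjusted p = 0.0152, limma adjusted p = 0.308). The other probe sets of Lifr were at -0.32 and -0.19, so all 3 were negative and 0 passed by limma, 1 of them with an unadjusted p under 0.05. The one at -0.19 was under the background line on every array, so its sign carries little weight. No call was gained for Lifr in any alternative.

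Il6ra, which encodes the interleukin 6 binding subunit, was at 5.23, 5.38 and 5.12 in KO hearts, against 5.24, 5.05 and 5.41 in WT hearts. The KO values lay within the range of the WT values, with a difference of 0.01 (95% confidence interval -0.26 to 0.28, limma adjusted p = 0.992). Its other probe set was at 0.14 and under the background line on every array.

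Il6st, the gp130 gene, gave readings that differed between its 4 probe sets. The main one, 1452843_at, was at 8.87, 8.79 and 8.90 in KO hearts, against 9.12, 8.92 and 8.93 in WT hearts. All KO hearts lay below all WT hearts, by a narrow margin, and the difference of -0.13 did not pass (95% confidence interval -0.36 to 0.09, limma adjusted p = 0.730). The probe sets 1460295_s_at and 1421239_at were at -0.21 and -0.17, but 1421239_at was above the background line on only 0 KO arrays and 1 WT array. The remaining one, 1437303_at, rose, with 5.85, 5.32 and 5.90 in KO hearts, against 4.68, 4.65 and 4.96 in WT hearts. Its difference was 0.92 (SE 0.16, 95% confidence interval 0.57 to 1.28, limma adjusted p = 0.0454), and its call ended in 6 of 14 alternatives, among them without KO replicate 1 (adjusted p = 0.190), KO replicate 3 (0.154), WT replicate 1 (0.127), WT replicate 2 (0.130) or WT replicate 3 (0.0743). Which part of the gene each probe set reads was not analysed here, so neither direction is taken as that of the gene.

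**Figure D2:**
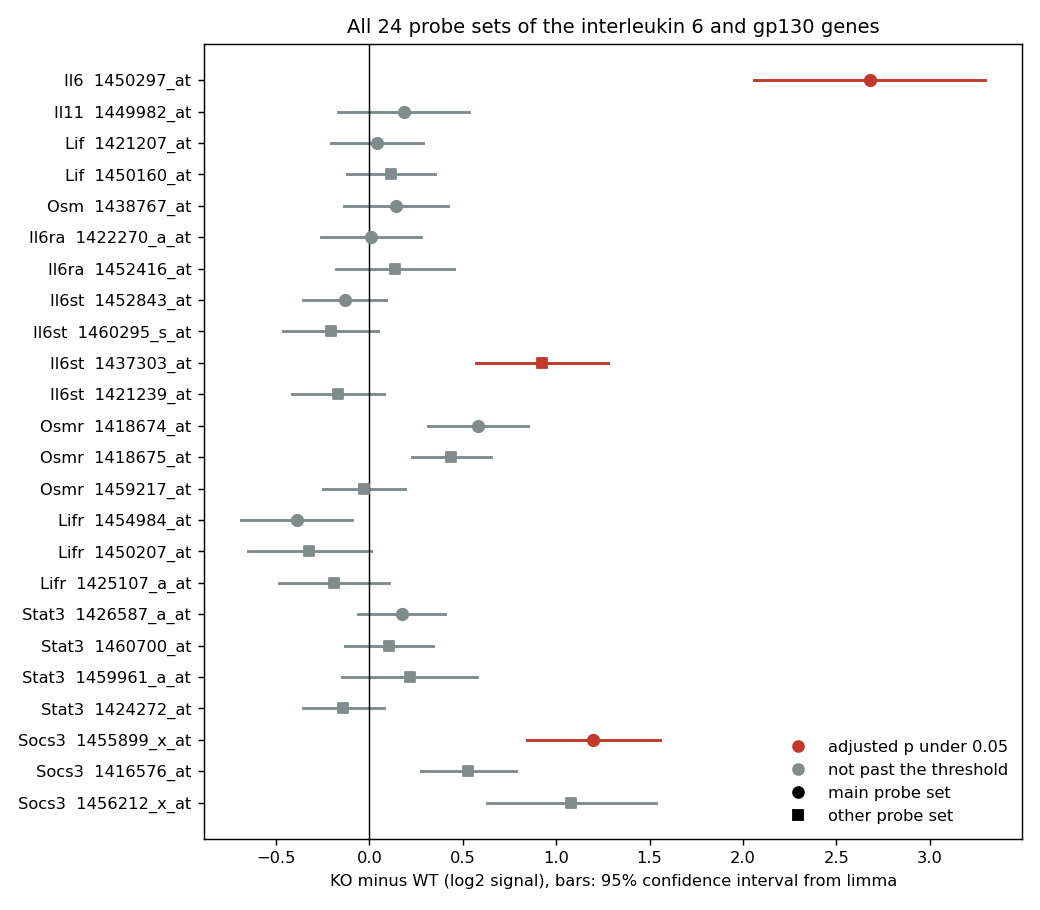
The difference KO minus WT in log2 signal is drawn for each of the 24 probe sets with its 95% confidence interval from limma, circles marking main probe sets, squares the others and red those with an adjusted p under 0.05. The probe sets of Socs3 all lie right of 0, those of Lifr all lie left of it, and 1 probe set of Il6st stands at 0.92 while the other 3 lie between -0.21 and -0.13. Among these, 1425107_a_at of Lifr was under the background line on every array. For Il6st, 1421239_at was above it on 0 KO arrays and 1 WT array.

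Stat3, the transcription factor of the pathway, did not pass at any of its 4 probe sets. The main one read 8.55, 8.37 and 8.57 in KO hearts, against 8.25, 8.28 and 8.45 in WT hearts. The groups overlapped, and the difference was 0.17 (95% confidence interval -0.06 to 0.41, limma adjusted p = 0.640). The other 3 were at 0.11, 0.21 and -0.14. STAT3 acts after phosphorylation, which these arrays do not measure.

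Socs3, the feedback inhibitor, was higher in every KO heart at all 3 of its probe sets. The main one, 1455899_x_at, read 6.25, 6.27 and 6.64 in KO hearts, against 5.47, 4.89 and 5.20 in WT hearts. KO hearts did not overlap WT hearts, and KO replicate 3 was the highest. The rise was 1.20 (SE 0.16, 95% confidence interval 0.84 to 1.56, limma adjusted p = 0.0153), a ratio of 2.29. The others read 5.15, 5.18 and 5.47 in KO hearts, against 4.79, 4.63 and 4.79 in WT hearts, and 5.02, 5.18 and 5.85 in KO hearts, against 4.42, 3.99 and 4.40 in WT hearts. Their differences of 0.53 and 1.08 did not pass (limma adjusted p = 0.105 and 0.0646). Affymetrix marks probe sets ending in x_at as holding probes that can match other sequences. The main one and 1456212_x_at, the one at 1.08, carry that mark. The one without it, 1416576_at, had the smaller difference of 0.53 and passed in 0 of 14 alternatives. The call of the main probe set was lost in 4 of 15 alternatives, without KO replicate 2 (adjusted p = 0.0794), KO replicate 3 (0.0639) or WT replicate 3 (0.0553), and without KO replicate 1 and WT replicate 3 together (1.27, adjusted p = 0.118). Its difference stayed between 1.05 and 1.34 throughout.

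Il6 and Socs3 were not ranked alike among KO hearts. KO replicate 2 had the highest Il6, while KO replicate 3 had the highest Socs3 at each of its 3 probe sets. WT hearts are not ranked for Il6, since all 3 were under the background line. With 3 hearts a group, no correlation within a genotype can be given.

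The WT values of Il6 enter the next measure although they lie under the background line, so the Il6 part of it is a description of the readings only. The genes whose 6 values, each minus the gene's own mean, came closest to Il6 were Sprr1a, Wdfy1 and Nmrk2, with root mean square differences of 0.35, 0.35 and 0.45 over the 6 hearts. Sprr1a encodes a small proline-rich protein induced in stressed cardiomyocytes and differed by 2.16 (limma adjusted p = 0.0490). Wdfy1 encodes an endosomal adaptor and differed by 2.65 (limma adjusted p = 1.30e-05). Nmrk2 encodes a nicotinamide riboside kinase of muscle and differed by 2.28 without passing (limma adjusted p = 0.0706). All 3 shared with Il6 the highest value in KO replicate 2, and Wdfy1 had a narrower spread within genotypes.

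The closest to Socs3 were Adamts1, Fosl2 and Xirp1, at 0.16, 0.18 and 0.22. Adamts1 encodes a secreted metalloprotease and rose by 1.26 (limma adjusted p = 0.00485), and Fosl2, an AP-1 subunit gene, rose by 0.97 (limma adjusted p = 0.0273). Xirp1, which encodes an actin-binding protein of the intercalated disc, differed by 0.89 without passing (limma adjusted p = 0.0887). This measure of likeness counts the size of a change as well as its shape, and genes with large differences between genotypes are near one another by it.

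**Figure D3:**
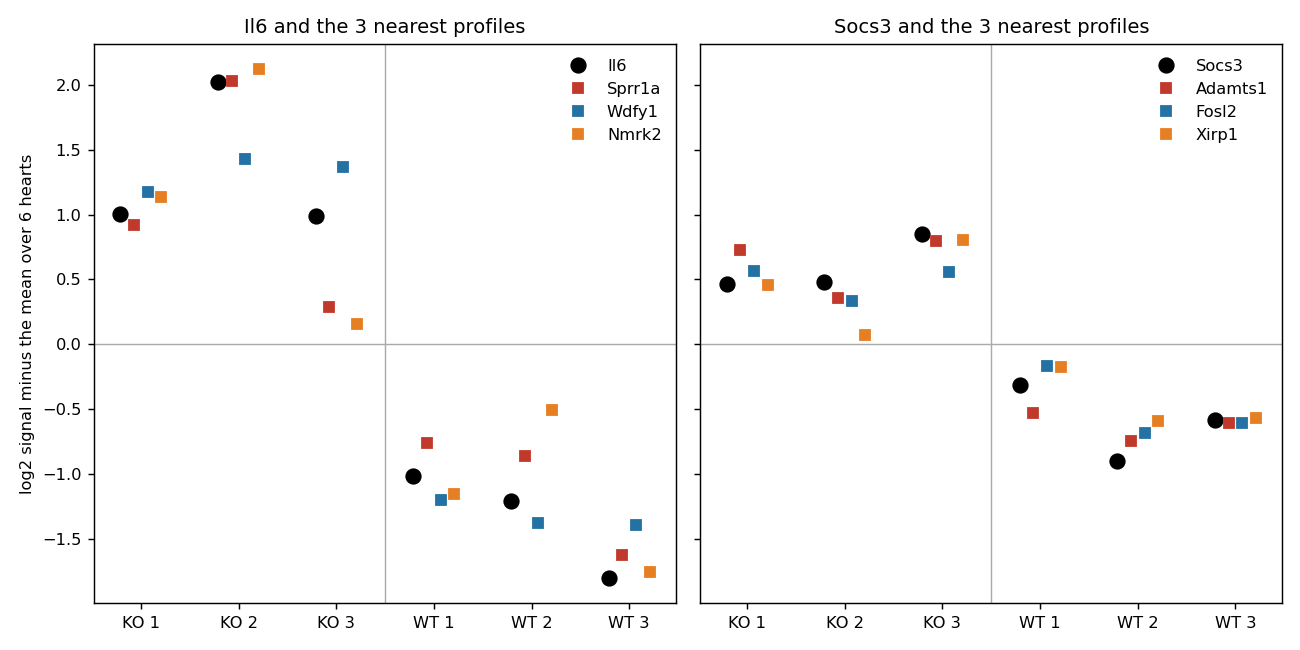
Log2 signal minus the gene's mean over 6 hearts is shown for Il6 (left, black circles) and Socs3 (right, black circles) with their 3 nearest genes (coloured squares), for KO hearts 1 to 3 and then WT hearts 1 to 3. Il6, Sprr1a and Nmrk2 peak in KO replicate 2, whereas Socs3 peaks in KO replicate 3.

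The rest of the pathway was followed through 37 further genes, relatives such as Il31 and Il31ra included, of which 29 were measured here. They had a median difference of -0.01, with 14 positive and 15 negative, and 1 passed the threshold, where 0.549% of all main probe sets did. That gene was Gab1, whose docking protein links gp130 to the phosphatase SHP2 and the MAP kinases. Gab1 read 7.20, 7.15 and 7.14 in KO hearts, against 7.71, 7.81 and 7.89 in WT hearts. All KO hearts were lower and the groups lay well apart, a fall of 0.64 (SE 0.09, limma adjusted p = 0.0280). A dimmer probe set of Gab1 also fell, by 0.68 (limma adjusted p = 0.0348), and the third was at -0.47 without passing. The main probe set lost its call without each of the 6 arrays in turn, with adjusted p between 0.0514 (without WT replicate 1) and 0.139 (without KO replicate 2), although the difference stayed between -0.69 and -0.59.

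Of these 29 genes 6 had an unadjusted p under 0.05 (11.5% of all main probe sets did), all lower in KO hearts. Besides Gab1, the signal transducers among them were Stat5a (-0.34), the kinase gene Jak1 (-0.30) and the exchange factor gene Sos1 (-0.28). The negative regulators were Cish (-0.53), a SOCS family gene known as a target of STAT5, and Pias1 (-0.26). None of these but Gab1 passed (limma adjusted p between 0.150 and 0.397). Other probe sets of Jak1 were at -0.01 and 0.30, so its main reading was not shared by them, while the other probe set of Stat5a was at -0.35. That of Stat5a and the Jak1 one at 0.30 were under the background line on every array. Among the other SOCS genes, Socs2 was at 0.17, Socs5 at 0.16, and Socs1 was under the background line on every array at -0.07. The median difference was -0.14 over 10 signal transducers, -0.07 over 9 negative regulators and 0.02 over the 3 shedding genes, Adam10 (0.12), Adam17 (0.02) and Rhbdf2 (-0.03), whose products release receptors or control that release.

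The other ligands and receptors of the family were few. Ctf1, the cardiotrophin 1 gene, was above the background line on all arrays and differed by -0.12 (limma adjusted p = 0.810). Il31, Ebi3 and Clcf1 were under the line on every array, at -0.05, 0.06 and 0.01. The receptor genes Cntfr and Il27ra were at 0.11 and 0.07. Il31ra was at 0.21, higher in all 3 KO hearts but under the line on every array (limma adjusted p = 0.495).

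Genes known as STAT3 targets or as acute phase genes had a median difference of 0.41 over the 30 listed and measured, against 0.00 over all main probe sets. A positive difference was seen in 26 of the 30, as it was in 8907 of all 18029 main probe sets. By limma 4 rose and 0 fell, where 0.322% of all main probe sets rose. At an unadjusted p under 0.05 there were 15, all higher. Of all 18029 main probe sets 11.5% reached that level, and 936 did so with a higher KO mean. In 14 the KO hearts lay wholly above the WT hearts, as they did in 7.34% of all main probe sets. Without KO replicate 1 and WT replicate 3 together, 0 of the 30 passed by limma and 14 had an unadjusted p under 0.05. Many of these genes also answer to other signals, so their values do not measure STAT3 activity. The list was chosen with earlier results of these data known, so these counts describe it and are not a test.

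**Figure D4:**
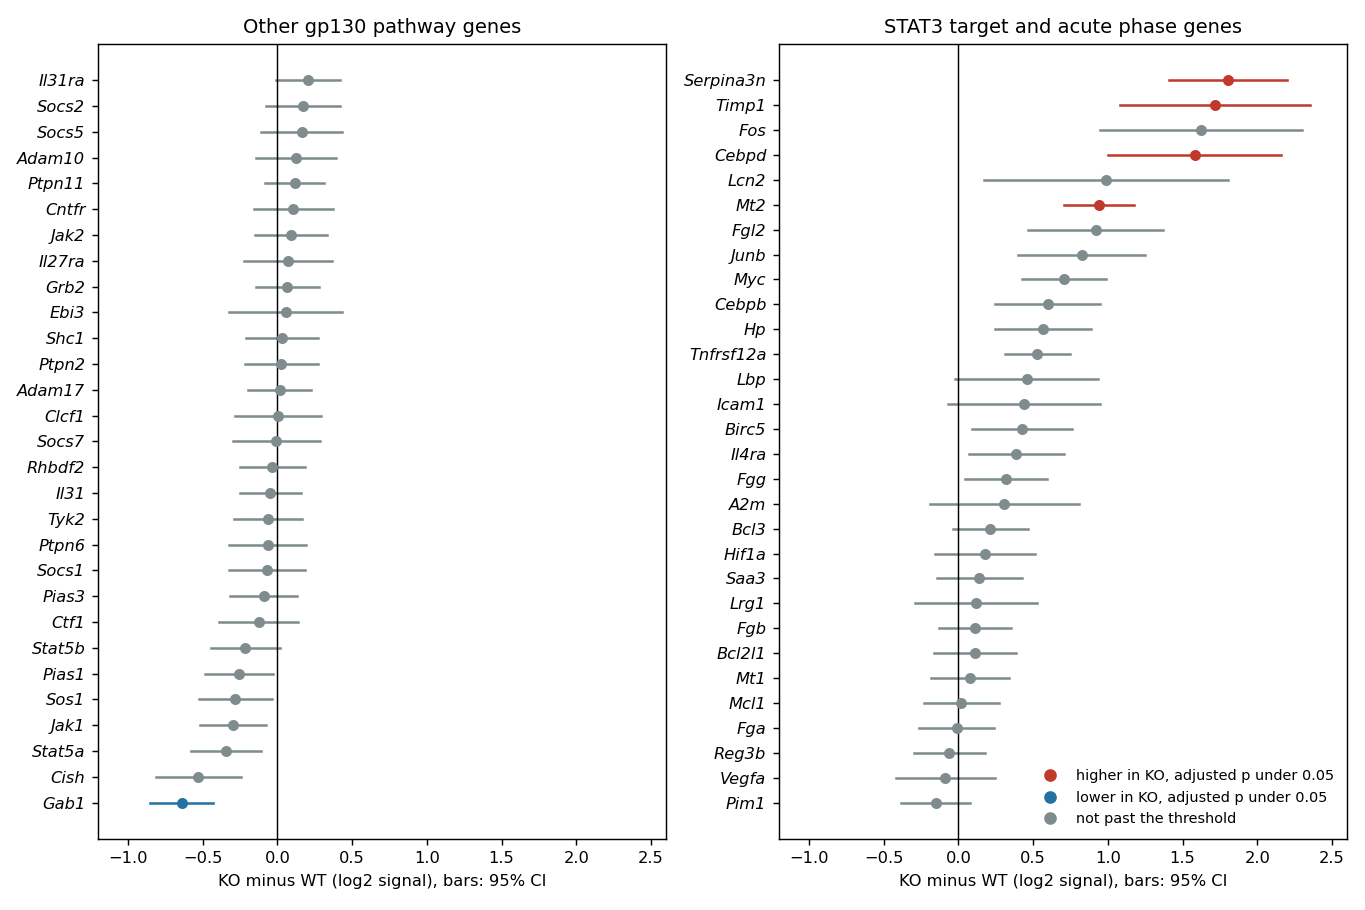
The difference KO minus WT in log2 signal with its 95% confidence interval is drawn for 29 other gp130 pathway genes (left) and 30 STAT3 target and acute phase genes (right), red and blue marking genes past the limma threshold. The pathway genes spread from -0.64 to 0.21 around a median of -0.01, and 26 of the 30 targets lie right of 0.

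The 4 genes that rose were Serpina3n, Mt2, Cebpd and Timp1. Serpina3n, an acute phase protease inhibitor gene, read 8.20, 8.25 and 7.83 in KO hearts, against 6.70, 6.13 and 6.04 in WT hearts, a rise of 1.80 (SE 0.18, limma adjusted p = 0.00377). Mt2, a metallothionein gene, read 9.78, 9.70 and 9.63 in KO hearts, against 8.73, 8.91 and 8.64 in WT hearts, a rise of 0.94 (SE 0.10, limma adjusted p = 0.00579). For both, the gap between the groups exceeded the spread within either of them. Both lost their call only without KO replicate 1 and WT replicate 3 together, with adjusted p at 0.0514 and 0.0945.

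Cebpd, a transcription factor gene of the acute phase response, read 7.85, 7.54 and 7.93 in KO hearts, against 6.79, 6.27 and 5.52 in WT hearts. The rise was 1.58 (SE 0.26, limma adjusted p = 0.0405), with WT replicate 3 the lowest. Another, dimmer probe set of Cebpd was at 0.27, under the background line on every array, and did not pass. Timp1, an inhibitor of matrix metalloproteinases, read 8.14, 8.96 and 7.78 in KO hearts, against 6.90, 6.75 and 6.09 in WT hearts, a rise of 1.72 (SE 0.29, limma adjusted p = 0.0415). Like Il6, Timp1 was highest in KO replicate 2. Cebpd lost its call without any one of the KO replicates or without WT replicate 2 (adjusted p 0.107 to 0.158), and Timp1 without any single array other than KO replicate 3 (0.0756 to 0.129). Under a robust variance prior neither passed (0.0919 for Cebpd and 0.127 for Timp1).

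Fgl2, a fibrinogen-like gene, passed at a probe set other than its main one (1.30, limma adjusted p = 0.0377), with the main one at 0.92 (limma adjusted p = 0.111). Several listed genes missed the threshold while all 3 KO hearts were above all WT hearts, among them Fos (1.62), Junb (0.83), Myc (0.71), Cebpb (0.60) and Tnfrsf12a (0.53). Lcn2, the lipocalin 2 gene, was at 4.65, 4.66 and 6.30 in KO hearts, against 4.02, 4.25 and 4.38 in WT hearts, so its difference of 0.99 rested on KO replicate 3. Bcl3 also had all KO hearts above all WT hearts, at a difference of 0.21. Groups overlapped for Pim1 (-0.15), Mcl1 (0.02) and Saa3 (0.14). Under the background line on every array were 6 of the 30, Birc5 (0.42), Fgg (0.32), A2m (0.31), Fgb (0.11), Fga (-0.01) and Reg3b (-0.06), of which Birc5 and Fgg are among the 15 with an unadjusted p under 0.05. Mt1 was at 0.08 beside the rise of Mt2.

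Markers of other cells and of stress were read in the same hearts. Heat shock genes had a median difference of 0.27, 2 of 11 rose (Hspa1b by 2.33 and Hspa1a by 2.20) where 0.322% of all main probe sets did, and their summed linear signal was 18316 to 19201 in KO hearts, against 15994 to 16633 in WT hearts. Of 12 macrophage markers 11 were positive with a median of 0.28, and 0 passed by limma while 5 had an unadjusted p under 0.05, the level that 11.5% of all main probe sets reached. Their summed signal was 3813 to 4312 in KO hearts, against 2899 to 3851 in WT hearts, and 1 of them, Itgam, was under the background line on every array. Of 10 neutrophil markers measured, S100a9 (1.32) and S100a8 (0.95) were the 2 with an unadjusted p under 0.05, 0 passed by limma, and Mpo, Camp, Mmp8 and Cxcr2 were under the line on every array. The 10 markers had a median difference of 0.06, with 6 positive and 4 negative, and Ngp, Ltf, Elane and Csf3r were at 0.16, 0.04, -0.02 and -0.02. The summed signal of the 10, S100a8 and S100a9 included, was 198 to 245 in KO hearts, against 160 to 172 in WT hearts.

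Of all 18029 main probe sets, 8907 had a positive and 9122 a negative difference, and 11.5% had an unadjusted p under 0.05. The counts in this paragraph are to be read beside these shares. Fibroblast markers had a median of 0.33, with 10 of 12 positive, 0 passing by limma and 6 with an unadjusted p under 0.05, 5 of them higher. Their summed signal was 17575 to 19485 in KO hearts, against 10878 to 17554 in WT hearts, the lowest being WT replicate 3. All 9 cardiomyocyte markers were negative, with a median of -0.19 and 0 passing by limma, 2 having an unadjusted p under 0.05. Endothelial markers had a median of 0.04, with 0 of 12 passing by limma and 1 with an unadjusted p under 0.05, Cldn5 (0.63). T and NK cell markers had one of -0.10, with 0 of 9 passing by limma and 0 at an unadjusted p under 0.05. Smooth muscle and pericyte markers had a median of 0.06, with 0 of 9 passing by limma and 4 with an unadjusted p under 0.05, Cnn1 (1.42), Tagln (0.88), Abcc9 (-0.64) and Myocd (-0.47). The summed signal of the 9 markers was 6752 to 8303 in KO hearts, against 6994 to 7581 in WT hearts. Cnn1 read 8.08, 5.32 and 5.54 in KO hearts, against 4.91, 4.70 and 5.09 in WT hearts. Tagln read 9.11, 7.94 and 8.33 in KO hearts, against 7.51, 7.44 and 7.79 in WT hearts. Both were highest in KO replicate 1, the array with atrial transcripts. The part of these shifts in the higher Il6, Socs3 and target gene signals was not tested. In RNA of heart tissue, more cells of a type and more RNA per cell cannot be told apart.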

How the data were processed

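Hearts of 3 Tmbim1 KO and 3 Flox wild type mice were measured on Affymetrix arrays, 1 array per mouse, from 400 ng of total RNA each. The authors deposited log2 signals. The submitters' processing notes name RMA and limma, and their versions are not given in the sources used here. The RMA step corrects for background, equalises the arrays' distributions and summarises probes, so an overall shift between genotypes is removed and weak signals are compressed. Array medians lay between 4.24 and 4.28. Scans and detection calls were not analysed here.

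Of 38208 rows, 13 control probe sets were left out. The platform annotation gave 34325 of the remaining 38195 probe sets 1 symbol, 62 several and 3808 none, and only those with 1 symbol were named. The genotypes were compared with limma 3.58.1 (lmFit and eBayes) in R 4.3.3, two-sided, and the code was tested on simulated data. The number of arrays limits the precision.

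The 10 genes, the gene lists and the background line were chosen with earlier results of these data known. Named were all 10 genes, Tmbim1, list genes past the threshold, up to 4 genes with the smallest p in each list of pathway or target genes and the 3 nearest profiles of each gene that passed. Other list genes given as values were chosen after their values were seen. Alternatives were other variance priors, array weights, rescaling, dropping probe sets under the 40th percentile of mean signal, main probe sets only, a replicate block, each array left out, and KO replicate 1 and WT replicate 3 left out together, the last chosen after seeing the data.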

Additional observations from a re-analysis of the deposited data

How the results depend on the processing

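The main probe sets of Il6 and Socs3 passed under all 8 alternatives that kept every array, and that of Gab1 under 7 of them. The filter on dim probe sets kept Il6 only through its KO values. The 3 passing probe sets became 1 to 3 with single arrays left out and the 2 passing genes 1 to 3, and each was 1 (Il6) without KO replicate 1 and WT replicate 3 together. The 1 other pathway gene became 0 by limma with any single array left out (5 or 6 of the 29 at an unadjusted p under 0.05), without those 2 arrays together (3) and with the replicate block (6). The 4 STAT3 target genes became 2 to 3 with single arrays left out, 0 by limma without those 2 arrays together (14 at an unadjusted p under 0.05) and 7 with the replicate block. The count over all probe sets ranged from 38 to 86 with single arrays left out, was 29 without the 2 arrays and 102 with main probe sets only. Directions turned for differences near 0, and the cause was not tested. With single arrays left out Il6ra ranged from -0.082 (without WT replicate 2) to 0.098, and was -0.060 without KO replicate 2. Lif ranged from -0.015 (without KO replicate 2) to 0.113, and was -0.0093 without WT replicate 2. A dim probe set of Osmr ranged from -0.084 to 0.028 (without KO replicate 3). Same-numbered hearts deviated together at correlations of 0.06, 0.14 and 0.02, so the numbers were not taken as pairs. The block gave 4 passing probe sets, adding 1 of Socs3, and KO replicate 1 correlated best with WT replicate 3.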
